A study of Homo sapiens with 7 samples.

Results

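The chromatin profile of the kinase VRK1 was set against that of histone H2A phosphorylated at T120 (pT120), in HT1080 cells transfected with a non-targeting small interfering RNA (siControl). HT1080 is an established human fibrosarcoma line, and each of the 2 profiles is 1 library, immunoprecipitated from fixed and sonicated nuclei with anti-VRK1 or with anti-H2ApT120. The levels were read at 102676 regions out of 148917 in the 7 deposited lists. These regions had been called in 5 libraries other than the 2 compared: siControl input DNA, siControl H2A ubiquitylated at K119 (ubK119), siVRK1 input DNA, siVRK1 pT120 and siVRK1 ubK119, where siVRK1 denotes transfection of small interfering RNA against VRK1. They lay on chromosomes 1 to 22, had 100 or fewer reads in each input, and only the longest of overlapping regions was kept. The choice of regions therefore used neither the VRK1 nor the pT120 peaks of siControl cells, but it did use the pT120 peaks of siVRK1 cells. Input DNA and ubK119 of siControl cells serve as background. VRK1 was profiled in siControl cells alone, so its antibody has no check here in cells depleted of VRK1. Positions are those of the lists, in hg19.

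VRK1 is a nuclear serine/threonine kinase, and H2A T120 is among the histone residues it is known to phosphorylate. The residue lies in the C-terminal tail of H2A next to K119, the lysine that Polycomb repressive complex 1 ubiquitylates, a mark known for gene silencing. A kinase can be found on chromatin where its mark is, but it can also bind without acting, and a mark can remain after the kinase has left. Input DNA is sonicated chromatin without antibody and shows the copy number of the DNA and how readily each stretch is recovered and sequenced.

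The VRK1 library had 32040499 reads and the pT120 library 20687408, against 26893399 for siControl input and 40442635 for siControl ubK119. Reads in a region were scaled by the library total to reads per 1000000 reads (RPM). The median region had 5 VRK1 and 3 pT120 reads and was 222 bp long, so single regions are imprecise and most statements below rest on sums. A count of 3 reads, the limit that a count of 0 allows, stands for 0.0936 RPM of VRK1 and 0.145 RPM of pT120. All intervals are exact 95% intervals of counting error only. Since the PCR copies carry no molecular identifiers, reads are not independent molecules. With 1 library a side no difference has a replicate check and no p-value is given. Each comparison is of these 2 libraries, and it was not tested whether another VRK1 or pT120 library would give the same values.

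Over all regions VRK1 reached 23936 RPM and pT120 22518 RPM, a VRK1 to pT120 ratio of 1.06 (1.06 to 1.07). Divided by the ratio in regions of the input lists it became 0.991, so its direction depends on the scaling. Neither antibody was above unprecipitated DNA in this sum, which includes peaks called in the inputs themselves. The siControl input had 26285 RPM in the same regions, so VRK1 stood at 0.911 and pT120 at 0.857 times the input, while ubK119 had 27604 RPM. Of the regions, 34083 overlap a peak of an input. In the 68593 regions outside such peaks VRK1 had 10872 RPM, pT120 10300 RPM, siControl input 10290 RPM and ubK119 17607 RPM. There VRK1 was 1.06 times and pT120 1.001 times the input, and the ratio of VRK1 to pT120 was 1.06 (1.05 to 1.06).

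Regions were then summed in windows of 5 Mb, which narrows the counting error. Of 567 windows with a region, 364 had at least 500 reads of VRK1 and pT120 together, and these held 96.2% of the VRK1 reads. VRK1 reads per window ran from 304 through a median of 925 to 98193, and pT120 reads from 182 through 548.5 to 64398. The VRK1 to pT120 ratio had a median of 1.07 and quartiles of 1.02 and 1.13, and it stayed between 0.824 and 1.37 in all 364 windows. VRK1 was at least 25% above pT120 in 8 windows (2.20% of those measured) and at least 20% below it in 0 windows (0%). Relative to the median window these counts were 2 and 3, so which side of pT120 VRK1 falls on depends on the scaling. In the same windows the siVRK1 input was at least 25% above the siControl input in 72 and at least 20% below it in 23. VRK1 was past the same limits against ubK119 in 12 and 154 windows. Over all regions VRK1 was lower than ubK119, at 23936 against 27604 RPM, so these limits are not centred on that ratio. Counts relative to the median window were taken for VRK1 and pT120 only. The lists of both inputs and of ubK119 supplied part of the regions, which widens these 2 comparisons, so they serve as a backdrop only. The siVRK1 pT120 list also supplied regions, and the VRK1 to pT120 ratio differed between lists (below). The comparison of VRK1 with pT120 is therefore not free of the choice of regions either. Of the window intervals, 76 (20.9%) did not hold the overall ratio, so the narrow band was still wider than counting error. Levels across the 364 windows, which also follow the copy number and the number of regions, had r of 0.996 for VRK1 with pT120, 0.961 for VRK1 with siControl input and 0.973 for VRK1 with ubK119, with rho of 0.993, 0.965 and 0.965.

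**Figure D1:**
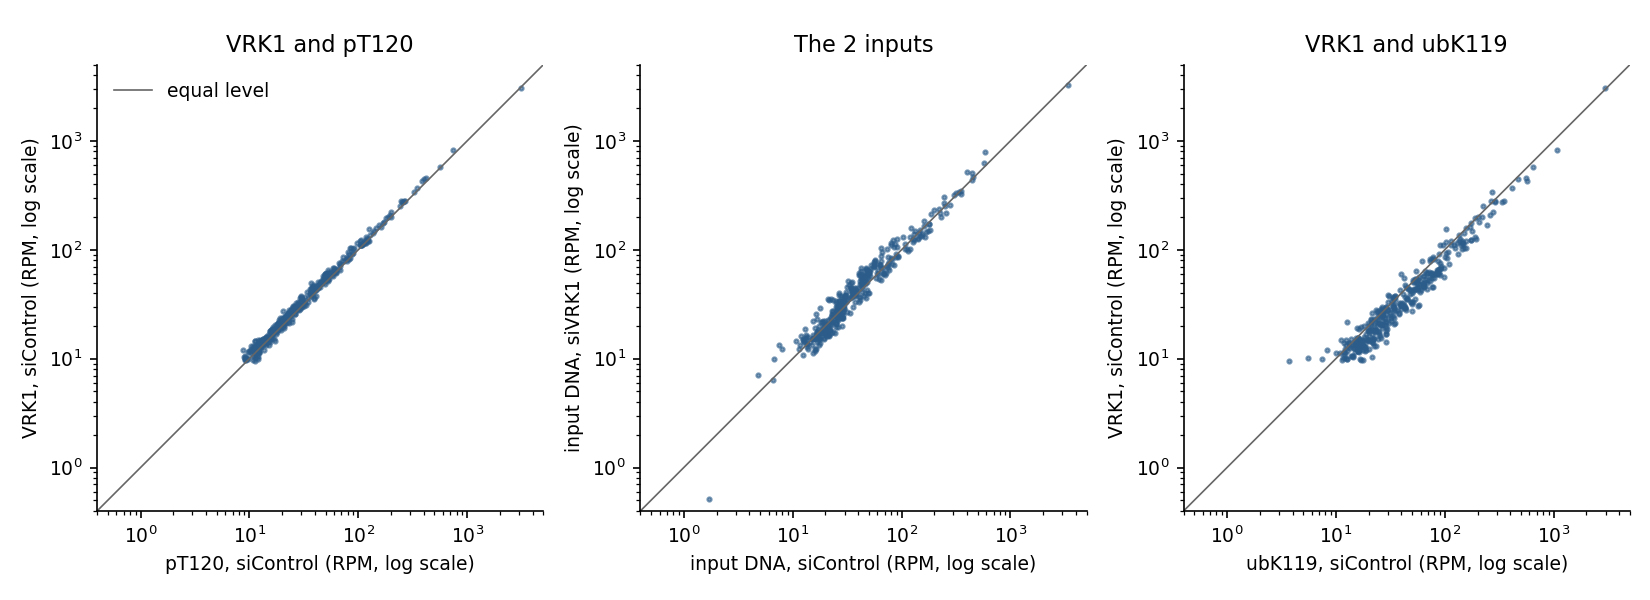
Levels in 364 windows of 5 Mb, in RPM on log axes: VRK1 against pT120 (left), the siVRK1 against the siControl input (middle) and VRK1 against ubK119 (right), with the line of equal level. The VRK1 and pT120 points keep to the line within ratios of 0.824 to 1.37, while the inputs spread from 0.299 to 1.799 and VRK1 over ubK119 from 0.482 to 2.54, or from 0.698 to 1.799 and from 0.482 to 1.86 without 2 windows of chromosome 1 in which 1 region holds most VRK1 reads. The regions come in part from peaks of the inputs and of ubK119, which widens the middle and right panels.

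The spread of a ratio across windows was expressed as the standard deviation (SD) of its log2 value after subtraction of the counting variance. For VRK1 and pT120 the SD was 0.117, of which counting accounted for 0.0832, and the remainder was 0.0821, or about 5.86% of the ratio. An interval that treats windows as independent ran from 0.0704 to 0.0947. To keep the choice of regions from widening the other pairs, each was measured only in regions of lists that belong to neither of its libraries. The remainder of VRK1 and pT120 was then the smallest of 21 library pairs, but its distance from 2 of them rested on 2 windows of chromosome 1, each with most of its VRK1 reads in 1 region (below). Without those windows VRK1 with pT120 had 0.0791 (0.0673 to 0.0917), pT120 with the siVRK1 input 0.0864 (0.0734 to 0.10) and VRK1 with the siVRK1 input 0.0869 (0.0757 to 0.0993). In the 327 windows of the latter 2 pairs VRK1 with pT120 had 0.0818. The 3 intervals overlap, but they share libraries and windows, and no difference between the pairs was tested. At this scale the closeness of VRK1 to pT120 was thus not told from that of either to the input DNA of siVRK1 cells. With the 2 windows of chromosome 1 kept, the pairs with that input had 0.293 and 0.269. The other 18 pairs had 0.201 or more without the windows, among them the pair of inputs with 0.215, VRK1 with its own siControl input with 0.258 and VRK1 with ubK119 with 0.230. In the windows used for each other pair, VRK1 and pT120 had between 0.0708 and 0.0976, and between 0.0647 and 0.0948 without those on chromosome 1.

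At single regions VRK1 and pT120 were the closest pair by this measure, in regions chosen by the reads of these 2 libraries. In the 12009 regions with at least 20 VRK1 and pT120 reads together, the SD beyond counting was 0.253, the smallest of the 21 pairs. The same minimum of VRK1 and pT120 reads was applied for every pair, so the ranking is not neutral between pairs. VRK1 with the siVRK1 input (0.344), pT120 with the siVRK1 input (0.404) and the pair of inputs (0.404) came next, each in regions of the other lists, and without the 2 windows of chromosome 1 they had 0.335, 0.394 and 0.403. In the regions of the first 2 of these pairs VRK1 and pT120 had 0.261. The spread of siControl pT120 against pT120 after siVRK1, the same antibody in the other cells, was 0.801 at regions and 0.329 in windows. The column headers carry the marks s_6 for VRK1 and s_7 for pT120 of siControl cells, s_8 for siControl ubK119, s_1 for both inputs, and s_4 and s_5 for siVRK1 pT120 and ubK119. What these marks stand for is not stated, and whether shared handling has a part in the likeness was not tested.

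**Figure D2:**
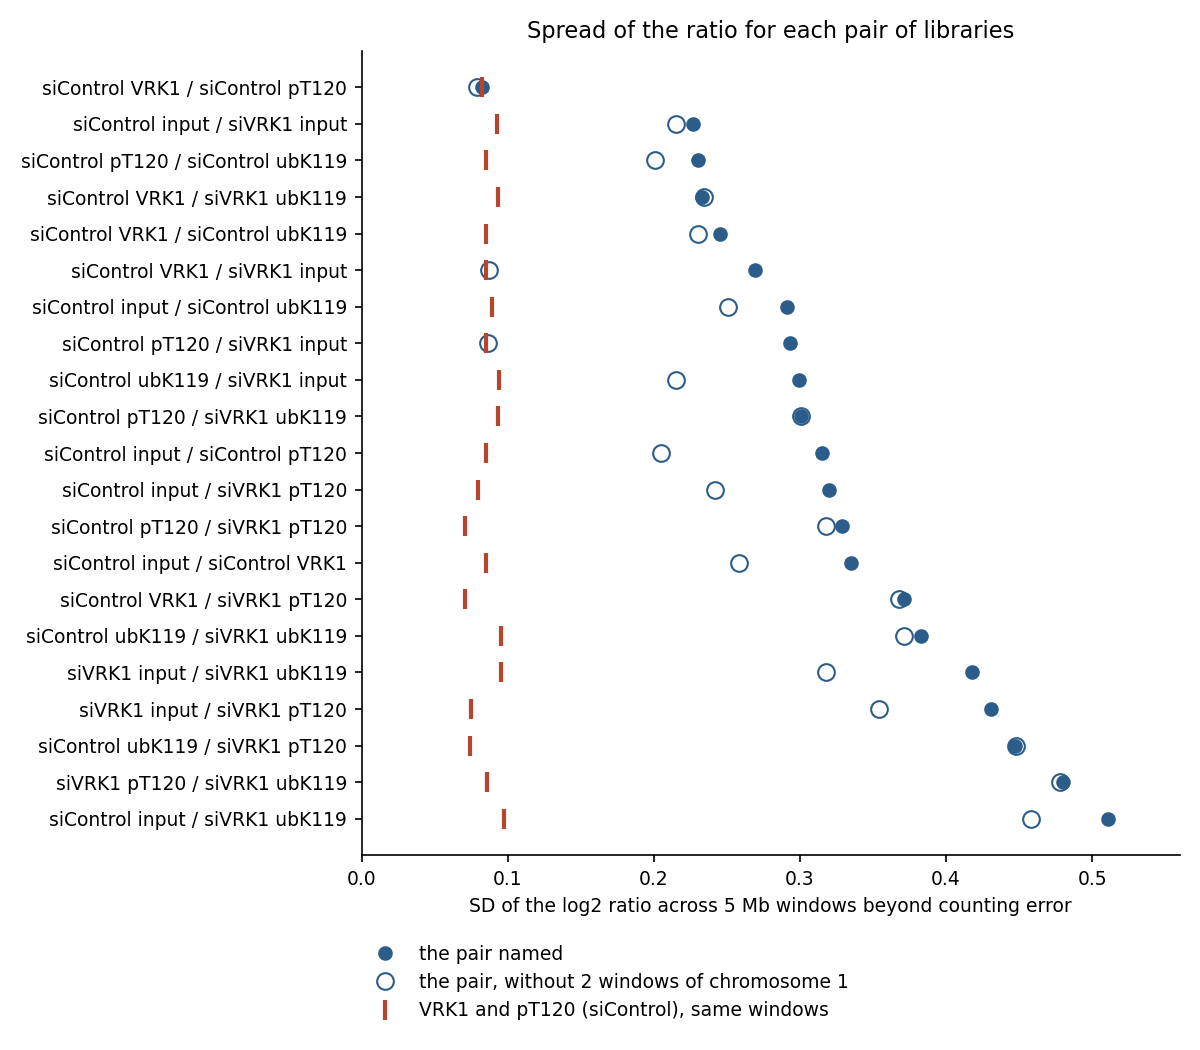
Spread of the log2 ratio across 5 Mb windows beyond counting error for all 21 pairs of libraries (filled circles), each in regions of lists of neither library, for the same pairs without 2 windows of chromosome 1 (open circles), and for VRK1 and pT120 of siControl cells in the windows of each pair (bars). VRK1 and pT120 lie at 0.0821. The pairs of VRK1 and of pT120 with the siVRK1 input go from 0.269 and 0.293 to 0.0869 and 0.0864 without those windows. For every pair the windows had at least 500 VRK1 and pT120 reads together.

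Across chromosomes VRK1 and pT120 were almost proportional. The ratio was above 1 with its interval on 21 of 22 chromosomes, all but chromosome 18. The highest ratios were on chromosome 15, with 59.2 RPM of VRK1 and 51.5 RPM of pT120 (1.15, 1.07 to 1.24), chromosome 10 (1.13, 1.11 to 1.15), chromosome 11 (1.12, 1.10 to 1.15) and chromosome 19 (1.12, 1.09 to 1.15). Their intervals overlap, so these 4 are not ordered among themselves. Chromosome 19 is known as the most gene-dense human chromosome. The lowest were on chromosome 3, with 4152 RPM of VRK1 and 3938 RPM of pT120 (1.05, 1.04 to 1.06), chromosome 13 (1.05, 1.04 to 1.07), chromosome 21 (1.05, 1.03 to 1.07) and chromosome 18. On chromosome 18 VRK1 had 3683 RPM and pT120 3713 RPM, a ratio of 0.992 (0.983 to 1.001) whose interval lay below those of all 21 others. Most of its reads came from 1 window, from 5000001 to 10000000, the richest of all windows, with 98193 VRK1 and 64398 pT120 reads in 3910 regions. VRK1 had 3065 RPM and pT120 3113 RPM there (0.984, 0.975 to 0.994), against 3350 RPM of siControl input and 2964 RPM of ubK119, so all 4 libraries were nearly equal. The next richest window, chromosome 5 from 1 to 5000000, had 818 RPM of VRK1 and 736 RPM of pT120 (1.11, 1.09 to 1.13), against 585 RPM of siControl input and 1083 RPM of ubK119. Chromosome 18 alone held 15.4% of the VRK1 and 16.5% of the pT120 reads, and chromosome 3 held 17.3% and 17.5%. The siControl input likewise had 15.1% and 19.2% of its reads there.

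**Figure D3:**
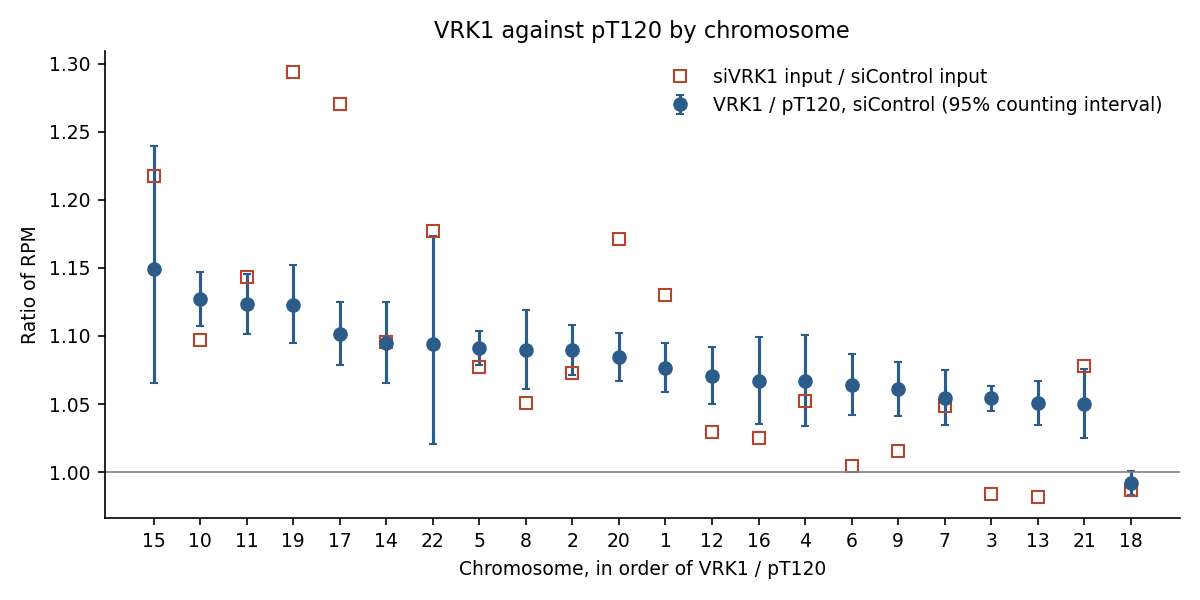
Ratio of VRK1 to pT120 RPM on chromosomes 1 to 22 in falling order (circles, bars give the 95% counting interval), with the ratio of the siVRK1 to the siControl input on the same chromosomes (squares). Chromosome 18 lies lowest at 0.992 and the other 21 lie above 1; the input ratio is high on chromosomes 19 and 17 and low on chromosomes 13, 3 and 18.

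The 8 windows with the highest and the 8 with the lowest ratio were chosen for their ratio and are a description. At the high end, chromosome 1 from 220000001 to 225000000 had 12.05 RPM of VRK1 and 8.80 RPM of pT120, against 11.4 RPM of siControl input and 8.28 RPM of ubK119 (1.37, 1.15 to 1.64). The tip of chromosome 2, from 1 to 5000000, had 49.9 RPM of VRK1 and 37.0 RPM of pT120, against 42.4 RPM of input and 62.5 RPM of ubK119 (1.35, 1.24 to 1.47). Here VRK1 was above and pT120 below the siControl input, while both were below the siVRK1 input (53.9 RPM). On chromosome 1 from 45000001 to 50000000 VRK1 had 27.2 RPM and pT120 20.4 RPM, against 26.9 RPM of input (1.33, 1.19 to 1.502). The tip of chromosome 19, from 1 to 5000000, had 37.2 RPM of VRK1 and 29.5 RPM of pT120, against 26.8 RPM of input (1.26, 1.14 to 1.39). The other four were on chromosome 22 (45000001 to 50000000, 1.30), chromosome 8 (135000001 to 140000000, 1.28), chromosome 5 (65000001 to 70000000, 1.28) and chromosome 10 (80000001 to 85000000, 1.2502). Some lie at or near a chromosome end.

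At the low end, chromosome 2 from 75000001 to 80000000 had 9.96 RPM of VRK1 and 12.1 RPM of pT120, against 14.4 RPM of input and 16.7 RPM of ubK119 (0.824, 0.696 to 0.976). On chromosome 14 from 30000001 to 35000000 VRK1 had 14.5 RPM and pT120 17.4 RPM, against 23.2 RPM of input (0.836, 0.727 to 0.962). In both windows VRK1 and pT120 stayed below the input. A window of chromosome 1 (190000001 to 195000000) had 0.839, chromosome 6 (70000001 to 75000000) 0.863 and another window of chromosome 1 (165000001 to 170000000) 0.877, and in both windows of chromosome 1 a single region holds most of the reads (below). Chromosome 7 (90000001 to 95000000) had 0.884, chromosome 16 (35000001 to 40000000) 0.886 and chromosome 5 (45000001 to 50000000) 0.894. All 16 intervals excluded the overall ratio, but the windows had been picked for extreme ratios. At the low end the intervals on chromosomes 6, 7 and 16 included 1.

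The remaining variation of VRK1 over pT120 moved with a ratio of libraries that enter neither side. In windows where the siVRK1 input was high against the siControl input, VRK1 tended to be high against pT120. The windows were sorted by the input ratio into 5 groups of 72 or 73. The lowest group had a median input ratio of 0.840 and a VRK1 to pT120 ratio of 1.02 (1.006 to 1.03). The groups that followed had 1.02 (1.013 to 1.03), 1.07 (1.06 to 1.08) and 1.09 (1.08 to 1.10). The highest group, with a median input ratio of 1.38, had 1.13 (1.12 to 1.14). These are ratios of pooled reads, in which windows with many reads weigh most. The median windows of the 5 groups had 1.02, 1.04, 1.07, 1.09 and 1.13. Across the 364 windows Pearson's r of the log2 ratios was 0.513 and Spearman's rho 0.50, and across the 22 chromosomes 0.734 and 0.798. Sorted by siVRK1 ubK119 over siVRK1 pT120, the 5 groups had 1.02 (1.007 to 1.03), 1.04 (1.03 to 1.05), 1.04 (1.03 to 1.04), 1.09 (1.08 to 1.10) and 1.13 (1.12 to 1.14), with r 0.488 and rho 0.502 over windows. The median windows of the groups in this second sorting had 1.02, 1.05, 1.07, 1.09 and 1.13. Both of those siVRK1 libraries also supplied lists of regions, whose own VRK1 to pT120 ratios differ (1.09 for ubK119 and 0.983 for pT120). The ratio of the inputs also differs between these lists (1.22 for siVRK1 ubK119 and 0.902 for siVRK1 pT120). How far the mix of lists makes either order was not tested. The level of the siControl input itself had r 0.0205 and rho 0.0131 with VRK1 over pT120. Of the windows named above, 7 of the 8 highest had an input ratio above the median window and all 8 lowest had one below. These values are descriptions, since windows share libraries and neighbouring DNA. They also depend on which regions enter. Outside input peaks r was 0.442 and rho 0.471 over 231 windows, but in the ubK119 lists alone, outside input peaks, they were 0.0661 and 0.0728 over 151 windows. What moves the input ratio was not tested.

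**Figure D4:**
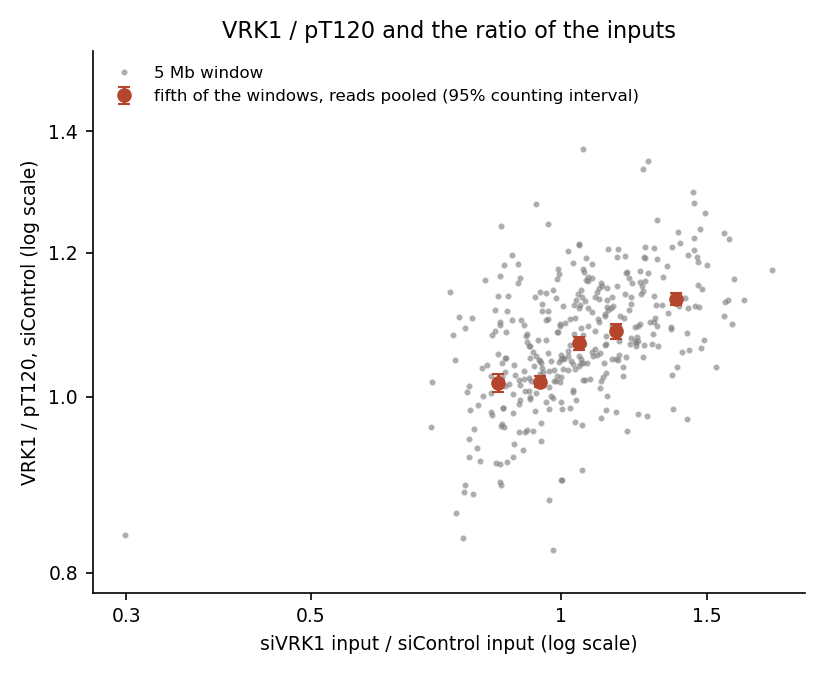
VRK1 over pT120 in siControl cells against the siVRK1 over the siControl input in 364 windows of 5 Mb, on log axes (grey), with the pooled ratio in 5 equal groups of windows sorted by input ratio (red, 95% counting interval). The pooled ratio goes from 1.02 in the lowest to 1.13 in the highest group.

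Regions of different origin differed in the same narrow range, with 1 change of direction. Regions listed for siControl ubK119 had a VRK1 to pT120 ratio of 1.09 (1.08 to 1.10), those for siVRK1 ubK119 1.09 (1.08 to 1.10), those for siControl input 1.05 (1.05 to 1.06) and those for siVRK1 input 1.08 (1.07 to 1.09). Regions listed for pT120 after siVRK1 had 7375 RPM of VRK1 and 7502 RPM of siControl pT120, a ratio of 0.983 (0.977 to 0.989). Outside input peaks the contrast was wider, with 1.12 (1.11 to 1.13) in regions of siControl ubK119, 1.11 (1.097 to 1.12) in those of siVRK1 ubK119 and 0.963 (0.955 to 0.972) in those of siVRK1 pT120. The last list was drawn up with the same antibody as one side of the comparison, so it is not neutral between them. Outside input peaks, the 9172 regions of siVRK1 ubK119 had the largest ratios to siControl input of these 3 lists. There VRK1 stood at 1.496 and pT120 at 1.35 times the siControl input, but at 1.10 and 0.992 times the siVRK1 input. Regions held by 1 list had a VRK1 to pT120 ratio of 1.07 (1.06 to 1.07), by 2 lists 1.10 (1.09 to 1.11), by 3 lists 1.03 (1.014 to 1.05), by 4 lists 1.002 (0.989 to 1.02) and by all 5 lists 1.06 (1.05 to 1.08), with no steady order.

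The ratio also differed between regions with little and with much input DNA, but the low end was filled from the siVRK1 pT120 list. With 0 to 5 reads in both inputs together, VRK1 over pT120 was 0.974 (0.961 to 0.988), with 6 to 10 reads 1.05 (1.04 to 1.06), with 11 to 20 reads 1.08 (1.08 to 1.09) and with 21 to 40 reads 1.09 (1.09 to 1.10). With 41 to 200 reads it was 1.05 (1.04 to 1.05). Of the 20549 regions with 0 to 5 input reads, 16016 came from the siVRK1 pT120 list and had 0.924 (0.909 to 0.940), while the 4533 from the other 4 lists had 1.08 (1.06 to 1.11). In the other 4 lists the remaining groups had 1.11, 1.10, 1.11 and 1.07, and pT120 was higher in none of the 5 groups. Regions over 1000 bp had 1.004 (0.991 to 1.02), whereas those over 300 to 600 bp had 1.07 (1.07 to 1.08). Between 1 and 5 Mb from a chromosome end, taken as the last base of any listed region or the first base, the ratio was 1.14 (1.12 to 1.15), and VRK1 stood at 1.21 and pT120 at 1.07 times the siControl input. Within 1 Mb of an end it was 1.09 (1.07 to 1.11), and from 5 to 10 Mb it was 1.02 (1.014 to 1.03), or 1.09 (1.08 to 1.11) without chromosome 18. From 10 to 20 and from 20 to 40 Mb it was 1.07, so the ratio did not fall steadily from the ends. At 40 Mb or more from an end the ratio was 1.05 (1.05 to 1.06), with VRK1 at 0.829 and pT120 at 0.788 times the input. The siVRK1 input was itself higher than the siControl input near the ends. Against it, VRK1 stood at 0.937 and pT120 at 0.825 times between 1 and 5 Mb, and at 0.834 and 0.792 times far from the ends.

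Region by region, VRK1 was at least 2 times pT120 in 991 of the 12009 regions with 20 or more reads (8.25%) and at most 0.5 times in 362 (3.01%). The other 90667 regions had fewer reads and were not called, and 4532 regions had 0 VRK1 and 9767 had 0 pT120 reads. Relative to the median region the counts were 761 and 500. These calls came mostly from thinly covered regions. With 20 to 29 reads, 11.7% of 6385 regions were 2-fold higher and 4.49% 2-fold lower in VRK1. With 100 or more reads, 5 of 825 regions (0.606%) were higher and 0 lower. Intervals that did not hold the overall ratio were found for 667 regions (5.55%), 4.73% with 20 to 29 reads and 8.97% with 100 or more. Across the 12009 regions, which share these libraries and the copy number of their DNA, r of log2(RPM + 0.1) was 0.772 for VRK1 and pT120, 0.749 for VRK1 and siControl input and 0.705 for VRK1 and ubK119. By rank the order was another, with rho of 0.600, 0.673 and 0.643. The minimum was set on the sum of VRK1 and pT120 reads. Near it 1 of them is low where the other is high, which lowers their own r and rho. These values are therefore not measured alike, and their order is not a ranking of likeness. At this depth most single regions could not be told from the overall ratio.

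The 6 regions with the highest lower bound of the ratio were picked for it and are given as values. Near the end of chromosome 12, between 95297 and 95700, there were 59 VRK1 and 5 pT120 reads, or 1.84 and 0.242 RPM, a ratio of 7.62 (3.09 to 24.3). The siControl input had 1.64 RPM and ubK119 0.544 RPM there, so VRK1 was close to the input and pT120 far below it. On chromosome 10, 125919459 to 125919805, 57 VRK1 reads stood against 7 of pT120 (5.26, 2.39 to 13.7). Further regions were on chromosome 12 from 132111692 to 132111995, with 37 and 4 reads (5.97, 2.15 to 23.1), and on chromosome 14 from 94985646 to 94986325, with 41 and 5 reads (5.29, 2.09 to 17.2). In 2 regions pT120 had a single read: chromosome 2, 1107370 to 1107725, with 24 VRK1 reads (15.5, 2.53 to 637), and chromosome 12, 32908981 to 32909271, with 23 (14.9, 2.41 to 612). In the latter ubK119 also had only 1 read against 22 in the input.

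The regions with the lowest upper bound had few VRK1 reads. On chromosome 9, 36148333 to 36148664, 4 VRK1 reads stood against 16 of pT120, a ratio of 0.161 (0.0393 to 0.5004), with 7 reads in the siControl input. On chromosome 13 from 106755939 to 106756470 the numbers were 8 and 23 (0.225, 0.0868 to 0.520), and on chromosome 5 from 17338251 to 17338617 they were 10 and 25 (0.258, 0.111 to 0.557). In these 3 regions, and in the 3 that follow, pT120 was above the siControl input in RPM while VRK1 was not. A pair on chromosome 18, at 9613215 to 9613584 and 8906014 to 8906417, had 6 and 18 and 6 and 17 reads. The last, on chromosome 8 from 144751588 to 144752002, had 12 and 26 reads (0.298, 0.137 to 0.612) and 60 reads of ubK119.

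VRK1 and pT120 were both far above unprecipitated DNA in a few short regions. In 8 of the 12009 regions with 20 or more reads, VRK1 and pT120 each had at least 10 times the RPM of both inputs. This choice was made after values were seen. The highest was on chromosome 1 from 165721509 to 165721916, with 499 VRK1 reads (15.6 RPM) and 384 pT120 reads (18.6 RPM), a ratio of 0.839 (0.733 to 0.961). The siControl input had 23 reads there (0.855 RPM) and the siVRK1 input 6 reads (0.180 RPM), while ubK119 had 4.67 RPM. The next, on chromosome 1 from 191583277 to 191583484, had 9.18 RPM of VRK1 and 10.9 RPM of pT120 (0.840, 0.704 to 1.003), against 0.521 RPM of siControl input and 3.34 RPM of ubK119. These 2 regions held 71.6% and 96.7% of the VRK1 reads of their windows, and 74.9% and 96.6% of the pT120 reads. Without them the windows had ratios of 0.991 (0.790 to 1.247) and 0.807 (0.287 to 2.35). Thus pT120 exceeded VRK1 beyond counting error at the first site, while the interval of the other reached 1, and ubK119 was below both at each.

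Among regions outside input peaks, the 6 with the highest sum of VRK1 and pT120 were of 2 kinds. Short ones lay on chromosome 1 (205204835 to 205205196), chromosome 16 (3124470 to 3124873) and chromosome 12 (127861063 to 127861423). They had 4.84, 4.31 and 3.68 RPM of VRK1 and 5.32, 5.37 and 5.61 RPM of pT120. The ratios were 0.910 (0.708 to 1.17), 0.803 (0.621 to 1.04) and 0.657 (0.504 to 0.856), so that pT120 exceeded VRK1 beyond counting error on chromosome 12 only. Their inputs had 5 to 10 reads each, or 0.150 to 0.335 RPM. The long ones, of over 2 kb, lay on chromosome 5 (1229472 to 1232069 and 956127 to 958976) and chromosome 3 (133665905 to 133668594). In these VRK1 had 3.65, 3.75 and 3.43 RPM and pT120 3.87, 3.00 and 3.53 RPM, with ratios of 0.944 (0.704 to 1.27), 1.2497 (0.912 to 1.73) and 0.973 (0.717 to 1.33). Here ubK119 was of the same order, at 4.15, 3.39 and 4.72 RPM, and the siControl input had 1.71, 1.56 and 2.23 RPM.

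The strong short regions also held reads of siVRK1 cells. At the first site of chromosome 1, ubK119 after siVRK1 had 16.2 RPM and pT120 after siVRK1 had 4.44 RPM, and at the next site 10.2 and 2.89 RPM. In the regions of chromosomes 1, 16 and 12 outside input peaks, siVRK1 ubK119 had 5.74, 4.67 and 4.14 RPM, close to VRK1, and siVRK1 pT120 had 1.28, 1.47 and 1.19 RPM. Libraries of another antibody and of the other cells thus had many reads in the same short regions. The remaining 3 of the 8 regions had 1 to 3 reads in an input or 0, so their folds over the inputs are imprecise. On chromosome 11 VRK1 had 0.375 RPM, while a count of 3 reads stands for 0.112 RPM of siControl input. They lay on chromosome 1 (240557877 to 240558253, 36 VRK1 and 24 pT120 reads), chromosome 21 (20161071 to 20161288, 33 and 18 reads) and chromosome 11 (33651964 to 33652165, 12 and 11 reads), and all 3 intervals of VRK1 over pT120 included 1.

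**Figure D5:**
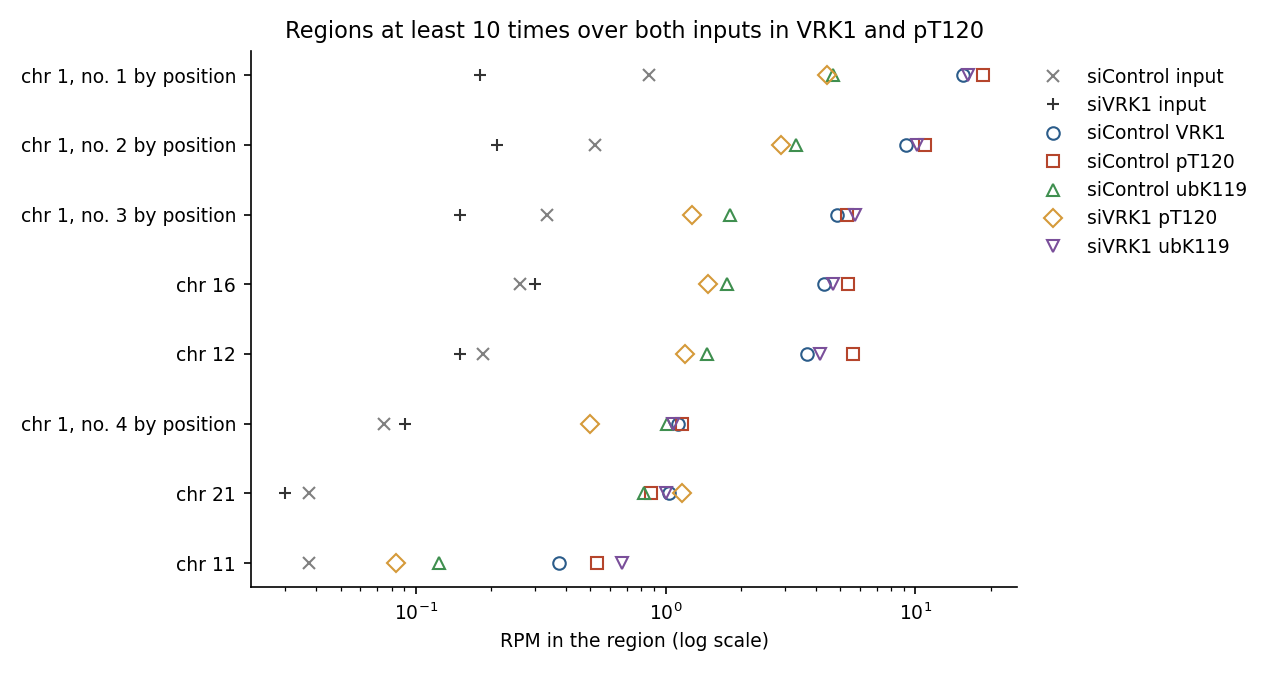
RPM of all 7 libraries, on a log axis, in the 8 regions where VRK1 and pT120 of siControl cells both had at least 10 times the RPM of each input, ordered by their sum; a library with 0 reads has no symbol. VRK1, siControl pT120 and siVRK1 ubK119 lie close together, and in the 5 highest regions siControl ubK119 and siVRK1 pT120 lie between them and the inputs.

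To see whether regions high for VRK1 were also high for pT120, each was set against a different input, so that the 2 ratios share no library. The regions were still those with at least 20 VRK1 and pT120 reads together, so both libraries entered their choice, which shapes the shares below. The ubK119 reads had no part in that choice, so the shares for ubK119 are not measured alike. VRK1 was at least 2 times the siControl input in 2081 of 12009 regions (17.3%), and pT120 at least 2 times the siVRK1 input in 718 (5.98%). The 251 common regions were 12.1% of the former and 35.0% of the latter. With the inputs exchanged, 732 regions (6.10%) were high for VRK1 and 1795 (14.9%) for pT120, and the 246 common regions were 33.6% and 13.7%. The same count for ubK119 gave 983 regions (8.19%) over the siVRK1 and 1664 (13.9%) over the siControl input. Of these, 316 (32.1%) and 256 (15.4%) were also high for VRK1 over the other input. The shares lay close together for both marks, and a difference between them was not tested. The ubK119 lists supplied part of the regions. In windows, r of VRK1 over siControl input with pT120 over siVRK1 input was 0.475 and rho 0.142, and r fell to 0.178 without the 2 windows of chromosome 1. With the inputs exchanged r was 0.718 and rho 0.527, and without those windows r was 0.569. For VRK1 with ubK119 in the same arrangements r was 0.386 and 0.337 and rho 0.25 and 0.377, and without the windows of chromosome 1 r was 0.232 and 0.382. In the first arrangement VRK1 thus had a lower r with pT120 than with ubK119 once those windows were left out, and in the other a higher one. Windows share these libraries and the copy number of their DNA.

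The window ratio was compared between separate regions of the same windows. Regions of the input lists and of the ubK119 lists gave ratios with r 0.312 and rho 0.286 over 160 windows that had at least 500 reads in each. Input lists and the siVRK1 pT120 list gave 0.298 and 0.263 over 79 windows, and ubK119 lists and the siVRK1 pT120 list 0.159 and 0.12 over 62. The same 2 libraries enter both sides, and counting error, which made up much of the spread of the ratio, lowers these values.

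At the limit of 100 reads in an input, the regions named on each side had wide intervals that all included 1. Just inside it, regions of chromosome 21 (9831942 to 9834466) and chromosome 9 (66821702 to 66822282 and 66839475 to 66840952) had VRK1 to pT120 ratios of 1.12, 0.973 and 0.821. Just outside it, regions of chromosome 1 (145040350 to 145042278 and 234912097 to 234913463) and chromosome 11 (54960959 to 54961375) had 0.872, 0.909 and 1.17. The 717 regions over the limit had 11131 RPM of VRK1 and 10823 RPM of pT120, a ratio of 1.03 (1.02 to 1.03). This lay below the 1.06 (1.06 to 1.07) of all regions within the limit.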

How the data were processed

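Reads of 7 libraries, 1 per condition, were counted by the authors in every listed region. Each deposited list, per the file headers, holds 1 library's peaks in hg19 with raw read counts of all 7 libraries. Peak height is a signal that the authors deposited, the most extended reads stacked within the peak. The RPM of that height was also computed by the authors, per the file headers, and height over RPM gave the library totals. According to the submitters' processing notes CASAVA 1.8.2, Bowtie 0.12.8 and Partek were used. Peak settings, the handling of duplicates and whether positions count from 0 or 1 were not stated, and the DNA was amplified by PCR before sequencing, per the labels. Repeats and PCR copies can raise counts.

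Groups came from the sample titles. Overlap meant at least 1 bp, and windows took regions by midpoint. Ratios are of summed RPM with exact conditional binomial 95% intervals (scipy 1.17.1). For the spread, 0.5 reads were added to each count. Named windows and regions follow a rule of ranks (8 windows at each end, 6 regions by each bound and by sum). The 8 regions over both inputs, the 5 groups of windows and the overlaps over unlike inputs were added after values were seen. The comparison, its regions and these rules were chosen with earlier results of these data known. The calculations were tested on simulated counts. Gene names and region sequences are not reported here, as the annotation at hand is of another build. Alternatives are in the closing section.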

Additional observations from a re-analysis of the deposited data

How the results depend on the processing

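The overall ratio of VRK1 to pT120 changed direction under 2 settings: 0.983 in the siVRK1 pT120 list alone, and 0.991 when divided by the ratio over regions of the input lists. Its direction thus depends on the scaling. It was 1.05 with no input limit, 1.06 with overlaps kept, 1.05 and 1.08 in the siControl and siVRK1 input lists, 1.09 in each ubK119 list, 1.06 outside input peaks and 1.08 without chromosome 18 (chosen after seeing the data).

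Windows with VRK1 at least 25% higher, 8 of 364, numbered 27 of 492 with 1 Mb and 3 of 239 with 10 Mb windows, 0 at a fold of 1.5, and 2 relative to the median window. They numbered 21 of 473 with at least 200 and 4 of 247 with at least 1000 reads, and 24 of 233 in the input lists alone, a larger share. Windows with VRK1 at least 20% lower, 0 of 364, numbered 2 with 1 Mb windows, 3 relative to the median window, 2 with at least 200 reads and 1 with no input limit. The split at each end therefore rests on scaling and window size.

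Regions at least 2-fold higher and lower, 991 and 362 of 12009, numbered 6995 and 3587 of 45085 with at least 10 reads, 90 and 29 of 3710 with at least 40, 368 and 172 of 12009 where the interval also excluded 1, and 340 and 135 of 3509 outside input peaks. The excess spread, 0.0821, was 0.0997 with 1 Mb windows and was within its interval under the other 7 settings. Without the 2 windows of chromosome 1 (chosen after seeing the data), the excess spread of VRK1 with the siVRK1 input was 0.0869 in place of 0.269, and that of pT120 with it 0.0864 in place of 0.293. No paired analysis was possible because each group has 1 library. Depth limits what single regions can show.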
